A study of Mus musculus with 4 samples.

Results

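The genes described here are 9 members of the JAK, STAT and SOCS signalling pathway: the kinases Jak1 and Jak3, the transcription factors Stat3, Stat4, Stat5b and Stat6, and the inhibitors Socs1, Socs3 and Cish. They were taken by symbol and are 9 of the 32287 features in the count tables. The study profiled blood leukocytes of C57BL/6J mice, 10 weeks old and with an intact immune system, that had been inoculated with acute lymphoblastic leukaemia (ALL) and treated with dasatinib, a tyrosine kinase inhibitor. Both groups carried the leukaemia and received the drug. Blood was drawn after 1 week of dasatinib, with every mouse in remission, and treatment went on for 4 further weeks. Mice were sorted into groups only afterwards, by their state at day 100: 6 mice still in remission make up Cured, and 6 mice whose leukaemia returned make up Relapsed. Each of the 4 droplet single-cell libraries (2 Cured, 2 Relapsed) is a mixture of live-sorted, thawed leukocytes from 3 mice. The mixture is thus the replicate. P-values between outcomes set a difference against the spread between mixtures, which is estimated for each gene partly or wholly from other genes. Comparisons of cells within libraries take the library as a block, so their p-values measure the spread left after differences between mixtures are removed. The comparison of outcomes asks whether any of these genes differed in blood cells before the outcomes parted.

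Janus kinases (JAKs) sit on the inner tails of cytokine receptors. When a cytokine binds, they phosphorylate the receptor and the STAT proteins that dock on it, and the STATs move to the nucleus and switch on genes. Among those genes are the SOCS family and Cish, whose proteins block the receptor or its kinase and so close the loop. Different cytokines use different members: interleukin-12 acts through Stat4, interleukin-4 through Stat6, interleukin-2, interleukin-7 and interleukin-15 through Stat5, and interleukin-6 and G-CSF (the neutrophil growth factor) through Stat3.

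STAT dimers bind an inverted repeat, and the promoters of the inhibitors are the part of the loop where such repeats can be shown. A promoter window here is 250 bases before to 50 bases after a RefSeq start site (GRCm38.p6), 300 bases in all, and the 9 genes have 11 windows. TTCNNNGAA was searched on both strands, and its reverse complement is the same motif. It occurs in 2726 of 32851 windows (8.30%), and at least 2 copies occur in 150 (0.457%). The window of Cish holds 2 copies and that of Socs3 holds 1, while those of the other 7 genes hold none. With 4 bases in place of 3 between the same half-sites, the motif occurs in 2284 of all windows (6.95%) and in none of the 11. The stretches with matches are shown 5′ to 3′ on the gene's strand, with the motif in capitals. That of Cish covers chr9:107296654-107296683 on the plus strand, from base -5 to base 25 of the start site. That of Socs3 covers chr11:117969502-117969530 on the minus strand, from base -164 to base -136. Both stretches lie inside the gene spans of the GENCODE annotation given below, which begin further upstream than these RefSeq start sites.
Cish: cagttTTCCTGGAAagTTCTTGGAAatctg
Socs3: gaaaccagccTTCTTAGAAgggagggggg
A match describes these letters only. No binding was measured.

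All 9 genes are annotated as protein-coding (GENCODE M21, GRCm38). Stat3 (chr11:100885098-100939540) and Stat5b (chr11:100780731-100850724) lie 34373 bases apart on the minus strand, with Stat5a between them, and an exon of Stat5a overlaps one of Stat3 on the opposite strand. Socs3 is on the same chromosome (chr11:117966079-117970047, minus). Stat4 lies at chr1:51987148-52107189 (plus), Stat6 at chr10:127642986-127660957 (plus), Jak1 at chr4:101152367-101265282 (minus), Jak3 at chr8:71676296-71690575 (plus), Socs1 at chr16:10782240-10785536 (minus) and Cish at chr9:107296026-107302784 (plus). Exons of Jak3 overlap those of Insl3 on the same strand, and exons of Stat4 overlap those of the predicted gene Gm28177, so these counts are uncertain. Opposite-strand exon overlaps also exist for Stat6 (Nab2), Jak1 (Raver2) and Cish (Gm17040 and Gm17041), and the strand setting of the counting is not stated in the sources used here.

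Each library held 3631 to 4383 barcodes with 7184045 to 10840397 UMIs (unique molecular identifiers, 1 per captured RNA molecule). Cells were placed in 6 classes by marker genes, which gave 11244 B cells, 144 CD4 T cells, 833 CD8 T cells, 677 NK cells, 292 monocytes and 948 neutrophils, 14138 cells in all. The median number of markers of any other lineage was 0 in every class. CD4 T cells were few, with 23 to 51 per library. Barcode sequences shared between libraries numbered 131 of 16026. Median UMIs per cell ranged from 925 to 1120 in neutrophils, 1531 to 2003.5 in NK cells, 1842 to 2341 in B cells and 3287.5 to 3867 in CD8 T cells. Relapsed replicate 1 had the highest median mitochondrial share in 6 of 6 classes and the lowest median UMIs in 5 of 6. Levels below are CPM, the UMIs of a gene per 1000000 UMIs of that class in that library, given for Cured replicates 1 and 2 and then Relapsed replicates 1 and 2. Because 5′ ends are counted, levels are compared between cells and not between genes.

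The 9 genes gave 14466 UMIs in the 6 classes. Jak1 was detected in 35.7% of cells, Stat4 in 12.5%, Stat3 in 10.4%, Stat6 in 8.16%, Stat5b in 4.97%, Jak3 in 4.29%, Socs3 in 4.02%, Socs1 in 3.78% and Cish in 0.191%. Each class was set against the mean of the other 5 in 1 edgeR fit over 5697 genes with the library as a block, and a gene was called at an adjusted p below 0.05. Jak3 and Cish had too few UMIs for that fit, so 7 members gave 42 contrasts, of which 26 were called. The shares of all genes called were 63.8% in B cells, 24.9% in CD4 T, 49% in CD8 T, 41.2% in NK, 42.9% in monocytes and 70.5% in neutrophils. In the same order, 5, 2, 4, 5, 5 and 5 of the 7 members were called. That is 28.6% of them in CD4 T cells, 57.1% in CD8 T cells and 71.4% in each of the other classes.

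**Figure D1:**
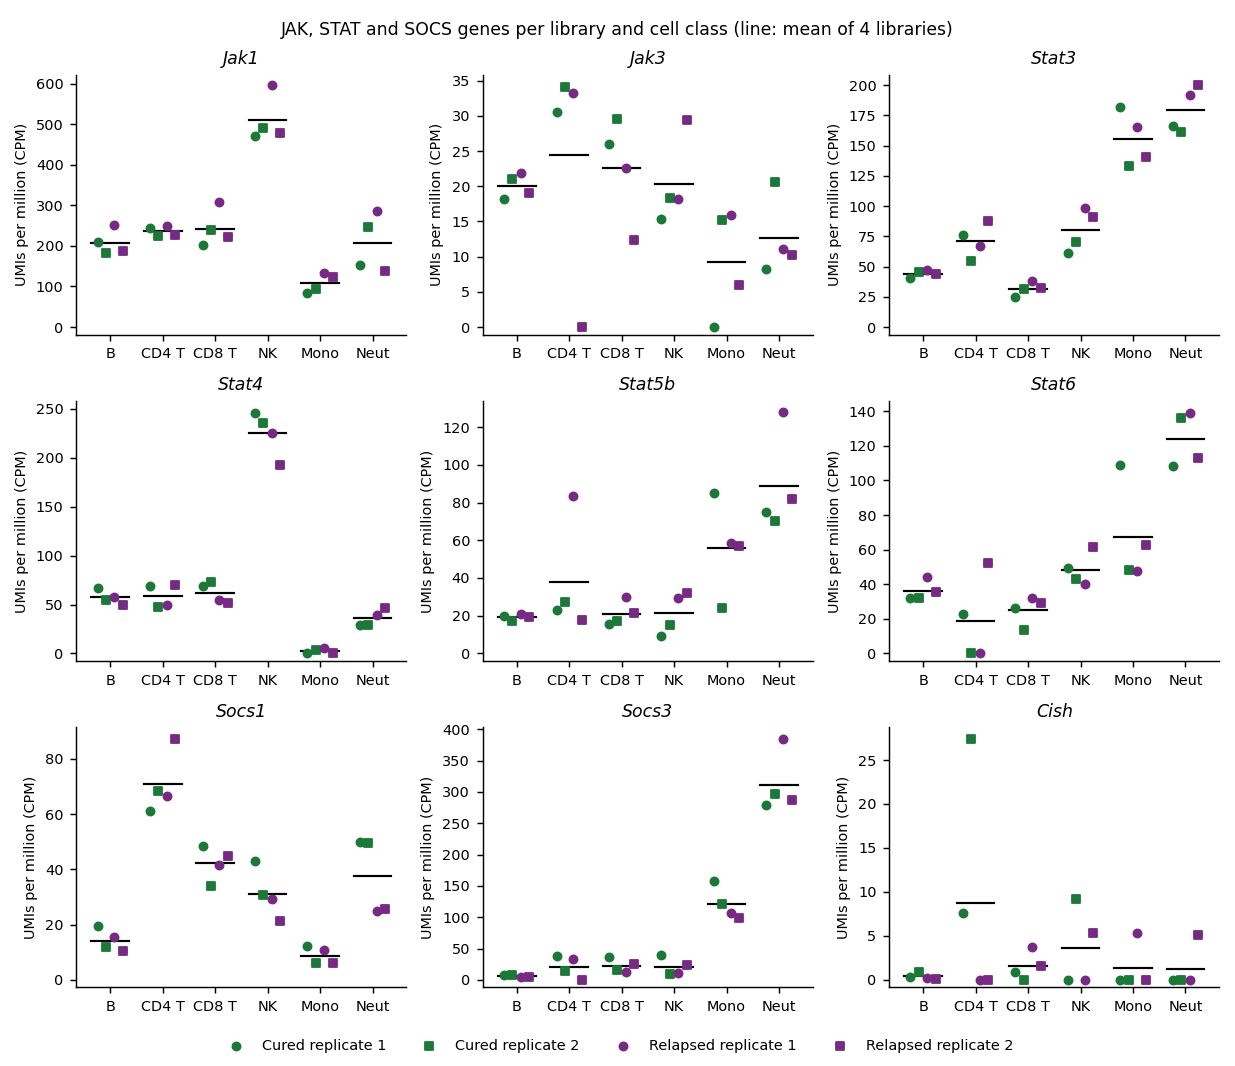
CPM (y axis, linear, a panel per gene with its own scale) of the 9 members in the 6 classes (x axis), a point per library and a line at the mean of 4 libraries. Jak1 and Stat4 peak in NK cells, Stat3, Stat5b, Stat6 and Socs3 in neutrophils and Socs1 in CD4 T cells.

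Jak1, the kinase shared by interferon, interleukin-6-type and gamma-chain cytokine receptors, was highest in NK cells. Its levels there were 470, 492, 597 and 479 CPM, all above every library of every other class. CD8 T cells had 202, 239, 307 and 223 CPM, CD4 T cells 244, 226, 250 and 227, B cells 211, 181, 251 and 188, and neutrophils 154, 248, 286 and 139. These 4 classes overlapped each other. Monocytes were lowest, with 84.9, 94.0, 133 and 123 CPM, below every library of the other classes. Against the mean of the other classes NK cells were higher by 0.90 on the log2 scale (SE 0.0908, adjusted p 6.37e-22) and monocytes fell by 1.51 (SE 0.144, adjusted p 1.08e-24). The higher level called in CD8 T cells (0.48, SE 0.0890, adjusted p 2.70e-07) was 0.07 without composition factors (adjusted p 0.542). When every cell was thinned to 500 UMIs, 21.4% to 25.7% of NK cells and 8.80% to 12.3% of B cells still held a Jak1 UMI.

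Jak3 pairs only with the gamma chain of the receptors for interleukin-2, interleukin-4, interleukin-7 and related cytokines. It was sparse, with 637 UMIs in 607 cells. CD4 T cells had the highest mean, from 11 UMIs, at 30.5, 34.2, 33.3 and 0 CPM. The CPM were 18.2, 21, 22.0 and 19.0 in B cells, 26.0, 29.5, 22.6 and 12.4 in CD8 T cells and 15.4, 18.3, 18.2 and 29.4 in NK cells. Monocytes (0, 15.2, 16.0 and 5.98) and neutrophils (8.31, 20.6, 11.1 and 10.3) had means of 9.28 and 12.6 CPM, from 10 and 13 UMIs. From the highest mean to the lowest the order was CD4 T, CD8 T, NK, B, neutrophil and monocyte, and neighbouring classes overlapped. The main fit held no test between classes for this gene.

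Stat4, which carries interleukin-12 signals in lymphocytes, was highest in NK cells and nearly absent from monocytes. NK cells had 246, 235, 226 and 193 CPM, against 68.8, 72.7, 54.6 and 51.1 in CD8 T cells, 68.7, 47.8, 49.99 and 69.9 in CD4 T cells and 67.3, 55.0, 58.1 and 49.1 in B cells. NK cells stood above all other classes and the 3 classes of B and T cells overlapped. Neutrophils had 29.1, 28.9, 38.9 and 46.2 CPM, below every B and T cell library. In 292 monocytes there were 2 Stat4 UMIs in all, giving 0, 3.03, 5.32 and 0 CPM. NK cells were higher by 2.52 (SE 0.169, adjusted p 1.17e-48) and CD8 T cells by 1.196 (SE 0.202, adjusted p 1.78e-08). The fitted value in monocytes (-5.17) passed the test but rests on those 2 UMIs and is no bound on the fold. Monocytes are also part of the mean that NK, CD8 T and B cells were set against, so their values depend on the same UMIs. Set directly against CD8 T cells, NK cells were higher by 1.11 (SE 0.151, adjusted p 2.57e-12). B cells were called higher (0.83, SE 0.176), and with classes taken from Leiden clusters that value was -0.08 and not called. At 500 UMIs per cell, 7.89% to 13.2% of NK cells held a Stat4 UMI, against 2.55% to 4.12% of B cells.

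Stat3, the main factor behind interleukin-6-type and G-CSF signals, was high in the myeloid classes. Neutrophils had 166, 161, 192 and 200 CPM and monocytes 182, 133, 165 and 141, and these overlapped. NK cells followed with 61.4, 70.3, 98.3 and 91.0 CPM, then CD4 T cells with 76.3, 54.7, 66.6 and 87.3, B cells with 40.5, 45.5, 46.8 and 43.7 and CD8 T cells with 25.1, 31.8, 37.7 and 32.5. Neutrophils were higher by 1.82 (SE 0.153, adjusted p 6.23e-32) and monocytes by 0.83 (SE 0.164, adjusted p 2.06e-06), the latter not called at 1000 UMIs per cell (0.55, adjusted p 0.168). B cells fell by 0.76 (SE 0.110) and CD8 T cells fell by 1.15 (SE 0.168, adjusted p 5.16e-11). The contrast of neutrophils with monocytes, for which 61% of all genes were called, was 0.83 and called, and it was 0.27 without composition factors (adjusted p 0.186). In NK cells Stat3 passed narrowly at -0.40 (adjusted p 0.0413) and kept that call under 1 of 14 alternatives.

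Stat5b, which acts after interleukin-2, interleukin-7 and growth hormone, was also highest in neutrophils, at 74.8, 70.2, 128 and 82.1 CPM. Monocytes had 84.9, 24.3, 58.6 and 56.8 CPM, on 7 to 19 UMIs per library. Levels in CD8 T cells (15.8, 17.0, 30.2 and 21.7), NK cells (9.22, 15.3, 29.1 and 32.1) and B cells (20.1, 17.0, 21 and 19.5) overlapped. In CD4 T cells 1 library stood apart, with 83.3 CPM in Relapsed replicate 1 from 5 UMIs, against 17.5 to 27.3 in the others. Neutrophils were higher by 2.09 (SE 0.220, adjusted p 1.35e-20), NK cells fell by 1.22 (SE 0.285, adjusted p 0.000106) and B cells fell by 0.71 (SE 0.162, adjusted p 2.58e-05). With every cell thinned to 1000 UMIs neither lower level was called (-0.92, adjusted p 0.107 in NK cells and -0.48, adjusted p 0.192 in B cells).

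Stat6, the transducer of interleukin-4 and interleukin-13, had 108, 136, 139 and 113 CPM in neutrophils and 109, 48.5, 47.9 and 62.8 in monocytes. The Cured replicate 1 monocytes, 29 cells with 9 Stat6 UMIs, reached the neutrophil range and the other 3 libraries did not. NK cells had 49.2, 42.8, 40.1 and 61.6 CPM, B cells 32.1, 32.1, 44.4 and 35.8, and CD8 T cells 26.0, 13.6, 32.0 and 29.4. Only 6 Stat6 UMIs were found in CD4 T cells, 3 in each of 2 libraries. Neutrophils were higher by 2.26 (SE 0.199, adjusted p 6.00e-29). CD4 T cells fell by 1.86 (SE 0.496, adjusted p 0.00142), a call lost without Cured replicate 2 (-1.35, adjusted p 0.0646).

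Socs1 is induced by interferons and gamma-chain cytokines and inhibits JAK kinases directly. It was highest in CD4 T cells, with 61.1, 68.4, 66.6 and 87.3 CPM. CD8 T cells had 48.3, 34.1, 41.5 and 44.9 CPM and overlapped neutrophils and NK cells. The contrast of CD8 T cells with neutrophils was 0.23 (adjusted p 0.479). The CD4 libraries lay above the CD8 libraries, but the contrast of the pair was 0.20 (adjusted p 0.828; 9% of all genes were called between these 2 classes). Neutrophils had 49.9, 49.5, 25.02 and 25.6 CPM, NK cells 43.0, 30.5, 29.1 and 21.4, B cells 19.3, 11.8, 15.4 and 10.3, and monocytes 12.1, 6.06, 10.6 and 5.98 from 7 UMIs in all. CD4 T cells were higher by 1.41 (SE 0.364, adjusted p 0.000907) and CD8 T cells by 1.17 (SE 0.205, adjusted p 6.38e-08). B cells fell by 0.92 (SE 0.206) and monocytes fell by 2.32 (SE 0.449, adjusted p 1.24e-06). The call in neutrophils (0.89, adjusted p 0.00585) was lost without composition factors (0.52, adjusted p 0.107) and without Cured replicate 2 (0.66, adjusted p 0.0997).

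Socs3, the inhibitor that binds receptors of the interleukin-6 and G-CSF type, was highest in neutrophils. They had 279, 297, 384 and 287 CPM and monocytes 158, 121, 106 and 98.7, with no overlap between them or with the lymphocytes. The other classes had 36.2, 15.9, 13.2 and 24.8 CPM (CD8 T), 38.2, 13.7, 33.3 and 0 (CD4 T), 39.9, 9.16, 10.9 and 24.1 (NK) and 7.79, 7.05, 3.86 and 4.44 (B). Neutrophils were higher by 4.07 (SE 0.151, adjusted p 2.95e-157) and monocytes by 1.73 (SE 0.209, adjusted p 1.35e-15). NK cells fell by 1.41 (SE 0.288, adjusted p 5.76e-06) and B cells fell by 2.95 (SE 0.256, adjusted p 1.06e-29). NK libraries overlapped those of CD4 T and CD8 T cells. The contrast of CD4 T with NK cells was 0.30 (adjusted p 0.804). That of CD8 T with NK cells was 0.86 (adjusted p 0.0266), and 0.10 without composition factors (adjusted p 0.835). At 500 UMIs per cell, 9.38% to 17.2% of neutrophils and 0.142% to 0.450% of B cells held a Socs3 UMI. Stat3, which is known to induce Socs3, also had its highest mean in neutrophils, as did Stat5b and Stat6. Stat3 levels in neutrophils and monocytes overlapped, and a link between these genes was not tested.

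Cish, the inhibitor of interleukin-2 receptor signalling and a Stat5 target, was almost undetected. The 6 classes held 27 UMIs in 27 cells, of which 11 fell in B cells, 5 in CD4 T cells, 5 in NK cells, 4 in CD8 T cells, 1 in monocytes and 1 in neutrophils. Scaled to depth the order differs, with mean levels of 8.74 ± 12.9 CPM in CD4 T cells, 3.63 ± 4.47 in NK cells, 1.56 ± 1.60 in CD8 T cells, 1.33 ± 2.66 in monocytes, 1.28 ± 2.56 in neutrophils and 0.403 ± 0.348 in B cells (SD, n = 4), and neighbouring classes in it overlapped. A count of 0 in a B cell library would allow up to 0.392 to 0.724 CPM and in a CD4 T cell library up to 20.5 to 52.4 CPM (counting error only), so a level like that of B cells was not detectable in CD4 T cells. The main fits held no test for Cish.

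**Figure D2:**
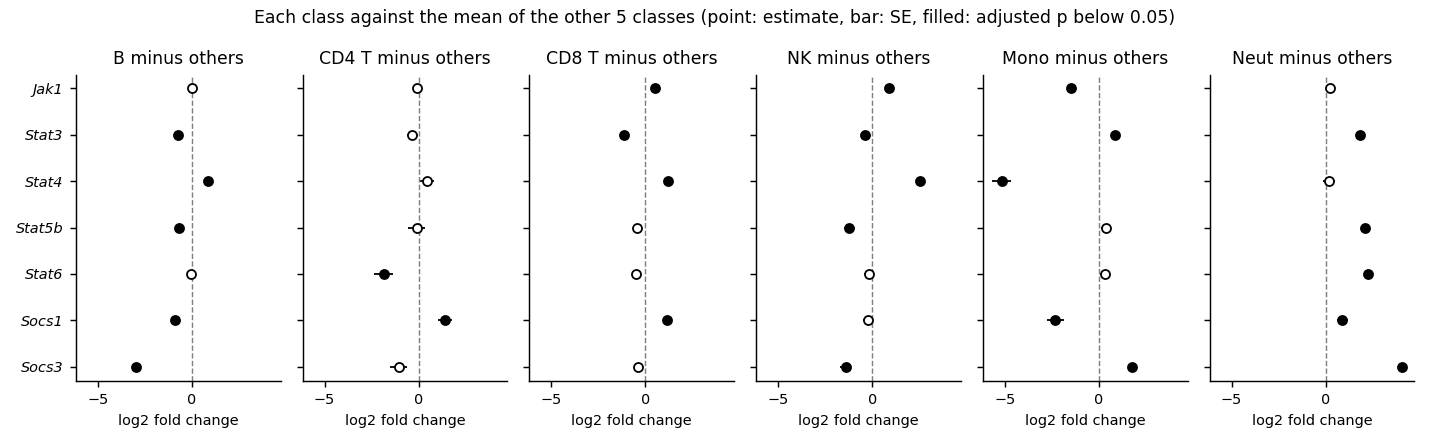
Log2 fold change (x axis) of the 7 tested members (y axis) in each class against the mean of the other 5, with SE as a bar where it exceeds the point, filled where called. Socs3, Stat6 and Stat5b are highest in neutrophils, at 4.07, 2.26 and 2.09, and Stat4 in NK cells, at 2.52. The Stat4 values outside monocytes are set against a mean that includes monocytes, where Stat4 was nearly absent.

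The classes differ in RNA composition, so the scaling moves these contrasts. Without composition factors the median of all genes moved by 0.50 in NK cells, 0.29 in monocytes, 0.18 in CD4 T cells, -0.18 in B cells, -0.38 in neutrophils and -0.41 in CD8 T cells. The share of called genes that were higher changed from 59.0% to 88.1% in NK cells, 65.3% to 81.9% in monocytes, 47.7% to 63.4% in CD4 T cells, 75.1% to 62.6% in B cells, 49.8% to 39.5% in neutrophils and 69.1% to 37.8% in CD8 T cells. Of the 26 member calls, 18 were unchanged in direction and call under every alternative run. Over the 15 pairs of classes, 72 of 105 member contrasts were called (49.5% of all contrasts of genes), and 63 of these were called in the same direction under all 3 scalings. The members with most called pairs were Socs3 (13 of 15) and Stat4 (12 of 15), and Stat5b had the fewest (7 of 15).

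Other genes of the pathway were read from 4 lists: 23 cytokine receptors, 5 other kinases and STATs, 18 other negative regulators and 18 cytokine-induced targets. The counts below are of called genes. The share of all genes called, higher or lower, was 63.8% in B cells, 24.9% in CD4 T and 49% in CD8 T cells. It was 41.2% in NK cells, 42.9% in monocytes and 70.5% in neutrophils. In neutrophils 10 of 19 tested receptors were higher and 6 lower, with a median of 0.75 against -0.13 for all genes, and 11 of 17 tested targets were higher and 5 lower. Monocytes had 11 of 19 receptors higher and 3 lower (median 1.51, all genes 0.07) and 11 of 17 targets higher and 3 lower. In NK cells 7 of 19 receptors were higher and 3 lower, in CD8 T cells 8 and 4, in CD4 T cells 7 and 6 and in B cells 8 and 3. Other negative regulators were higher in 6 and lower in 2 of 10 tested in B cells, 0 and 3 in CD4 T cells, 1 and 3 in CD8 T cells, 4 and 4 in NK cells, 4 and 0 in monocytes and 5 and 3 in neutrophils. Targets were higher in 4 and lower in 11 of 17 in B cells, 4 and 5 in CD4 T cells, 6 and 8 in CD8 T cells and 7 and 6 in NK cells. Of 4 tested other kinases and STATs, 2 were higher in B cells, monocytes and neutrophils each, 0 in CD4 T cells and 1 each in CD8 T and NK cells, and 1 was lower in CD8 T cells and 2 in NK cells.

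The genes of these lists with the largest called differences are given as mean CPM ± SD over 4 libraries, because some of the classes they were set against were at or near 0. Il12rb2, a chain of the interleukin-12 receptor upstream of Stat4, was at 83.9 ± 17.7 in NK cells and at most 8.31 as a mean elsewhere. Il2rb, the beta chain for interleukin-2 and interleukin-15, was at 715 ± 70.3 in NK cells, 99.3 ± 5.90 in CD8 T cells and 84.7 ± 33.8 in CD4 T cells. Il7r, the interleukin-7 receptor, was at 616 ± 71.5 in CD4 T cells, 597 ± 50.8 in CD8 T cells and 36.8 ± 8.41 in NK cells. Il27ra was at 83.8 ± 40.7 in CD4 T cells and 73.0 ± 4.53 in CD8 T cells, and also at 37.8 ± 14.9 in NK cells and 28.3 ± 3.199 in B cells. Il21r was at 57.4 ± 8.24 in B cells, 64.2 ± 29.3 in CD4 T cells and 41.3 ± 10.9 in CD8 T cells. Irf8, a factor of B and myeloid cells, was at 448 ± 77.6 in NK cells, 164 ± 33.1 in monocytes and 150 ± 13.3 in B cells. The growth regulator Myc was at 45.1 ± 8.73 in CD8 T cells, 31.4 ± 8.72 in B cells, 24.3 ± 11.4 in CD4 T cells and 23.7 ± 6.00 in NK cells.

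In the myeloid classes Il13ra1, a chain of the interleukin-13 receptor that signals through Stat6, was at 126 ± 29.7 CPM in neutrophils and 54.1 ± 29.7 in monocytes, and at most 0.153 as a mean in lymphocytes. Csf2rb, the common beta chain for GM-CSF, was at 202 ± 70.6 in neutrophils and 101 ± 21.3 in monocytes. Cebpd, a Stat3 target, was at 873 ± 66.2 in neutrophils and 131 ± 31.7 in monocytes, and the interferon-induced Ifitm3 was at 6326 ± 417 in monocytes and 1502 ± 111 in neutrophils.

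Between Cured and Relapsed no member was called in any class. Of the 54 combinations of 9 members and 6 classes, 32 had enough UMIs for the edgeR test within the class, and 0 passed, with a lowest adjusted p of 0.524 and 1 unadjusted p below 0.05. DESeq2 also called 0. Of all genes, 0% were called in B, CD4 T, NK and neutrophil classes, 0.515% in CD8 T cells (28 of 5441) and 0.0587% in monocytes (2 of 3408). Log2 differences (Cured minus Relapsed) ran from -0.70 to 0.97, and 22 of 32 were negative. The libraries of the groups did not overlap for 2 of 8 tested members in B cells (45.3% of all genes), 0 of 1 in CD4 T cells (34.2%), 5 of 8 in CD8 T cells (39.1%), 2 of 4 in NK cells (37%), 2 of 5 in monocytes (35.9%) and 3 of 6 in neutrophils (30.7%).

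Socs3 in B cells had the smallest p. Its levels were 7.79 and 7.05 CPM in Cured (50 and 54 UMIs) against 3.86 and 4.44 in Relapsed (16 and 31 UMIs), a log2 difference of 0.81 (SE 0.273, p 0.0145, adjusted p 0.524 by edgeR). The groups did not overlap, as for 45.3% of genes. Stat6 in B cells was 32.1 and 32.1 CPM in Cured against 44.4 and 35.8 (-0.31, SE 0.180, adjusted p 0.604), and Stat4 was 0.19 (SE 0.178, adjusted p 0.724). B cell libraries of Cured mice also had higher median UMIs (2232.5 and 2341) than those of Relapsed mice (1842 and 2025). With every cell thinned to 1000 UMIs the edgeR differences were 1.15 for Socs3 (adjusted p 0.420), -0.36 for Stat6 (adjusted p 0.609) and 0.18 for Stat4 (adjusted p 0.820). Beyond this refit, the part of depth in these differences was not tested.

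In CD8 T cells Jak1 was 202 and 239 CPM in Cured against 307 and 223 in Relapsed (-0.33, SE 0.181, adjusted p 0.590). Stat6 was 26.0 and 13.6 against 32.0 and 29.4 CPM (-0.64, SE 0.379, adjusted p 0.648), and Stat5b was 15.8 and 17.0 against 30.2 and 21.7 (-0.70, SE 0.415, adjusted p 0.655). The Stat6 value was -1.28 without Cured replicate 1 and -0.24 without Cured replicate 2, and the Stat5b value was -0.45 without Relapsed replicate 1. Without Relapsed replicate 2, with the lone Relapsed library assumed to vary like the Cured ones, 2 members passed: Stat6 in B cells (-0.46, adjusted p 0.0467) and Jak1 in CD8 T cells (-0.57, adjusted p 0.0386). That fit calls 1967 genes in B cells and 199 in CD8 T cells.

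In NK cells Stat3 was 61.4 and 70.3 CPM in Cured against 98.3 and 91.0 in Relapsed (-0.54, SE 0.329, adjusted p 0.816). Jak1 (-0.18, SE 0.180) and Stat4 (0.18, SE 0.214) differed by less, with adjusted p of 0.922 and 0.934. In monocytes Jak1 was 84.9 and 94.0 against 133 and 123 CPM (-0.46, SE 0.327, adjusted p 0.924), or 0.00479 at 1000 UMIs per cell. Socs3 gave 0.37 (SE 0.322, adjusted p 0.967), which was -0.16 at that depth and 0.63 without Cured replicate 2. Stat5b gave -0.58 (SE 0.518, adjusted p 0.970) on mean levels of 54.6 ± 42.9 and 57.7 ± 1.22 CPM, and it was 0.56 without Cured replicate 2 and -1.21 without Cured replicate 1. These monocyte values rest on as few as 29 cells in Cured replicate 1.

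Socs1 in neutrophils showed the largest difference, at 49.9 and 49.5 CPM in Cured against 25.02 and 25.6 in Relapsed. These come from 12, 12, 9 and 5 UMIs, 6 of them from 1 cell of Cured replicate 1, and the log2 difference of 0.97 (SE 0.523) had an adjusted p of 0.996. Stat5b (-0.58, SE 0.340) and Socs3 (-0.24, SE 0.225) had the same adjusted p there, and without Relapsed replicate 1 they were -0.22 and -0.0373. CD4 T cells allowed a test of Jak1 alone, at 244 and 226 against 250 and 227 CPM (-0.07, SE 0.322, adjusted p 0.989). A test of whether the outcome difference varied between classes called 0 of 7 members and 12 of 5697 genes (0.211%), with the smallest p for Socs3 (0.0468 unadjusted, adjusted p 0.972).

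**Figure D3:**
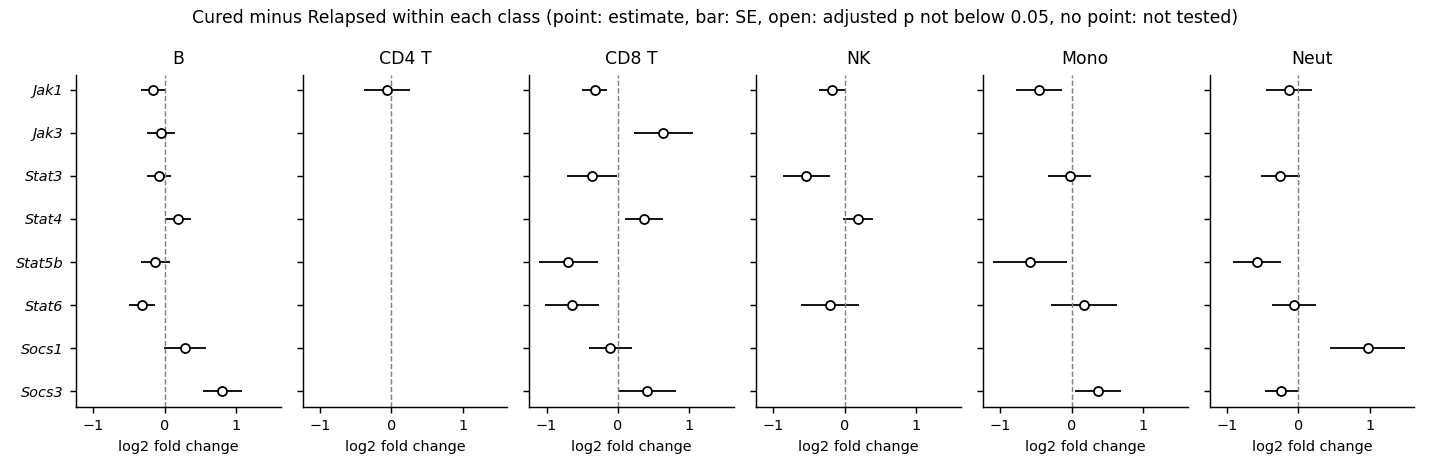
Log2 fold change of Cured minus Relapsed (x axis) with SE bars for the members tested in each class (y axis), all open because none was called. Jak1 lies below 0 in 6 of 6 classes and Socs1 in neutrophils is farthest above 0, at 0.97.

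The sign of Jak1 was the same in 6 of 6 classes, and Relapsed replicate 1 was the highest of the 4 libraries for Jak1 in 6 of 6 classes. Without that library the Jak1 difference was -0.0741 in CD8 T cells, -0.0159 in NK cells, -0.419 in monocytes and 0.00939 in CD4 T cells. In B cells and neutrophils the Cured means, 196 and 201 CPM, were above the level of Relapsed replicate 2. Relapsed replicate 1 is also the library with the highest median mitochondrial share in 6 of 6 classes and the lowest median UMIs in 5 of 6. Socs1 and Socs3 were each highest in Cured replicate 1 in 5 of 6 classes. With cells of at most 5% mitochondrial UMIs the Jak1 difference in CD8 T cells was -0.327, against -0.329 with all kept cells. At 1000 UMIs per cell it was -0.52 in CD8 T cells and 0.00479 in monocytes. Beyond such refits, the part of cell quality or depth in these patterns was not tested. No gene of the 4 pathway lists was called between Cured and Relapsed in any class, with 1 to 18 tested per list and class.

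Within CD8 T cells, Jak1 and Stat4 were higher and Socs1 was lower in cells that carried Ccl5, calls made by edgeR that DESeq2 did not make at folds of like size. Cells with at least 2 UMIs of Ccl5, a chemokine of antigen-experienced T cells, were compared with cells that had none, within each library. There were 66, 64, 39 and 51 positive and 186, 140, 107 and 130 negative cells. At least 2 Ccl5 UMIs were found in 98.2% of NK cells and in 0.436% of B cells, a class that should lack the gene (median depth 2126 UMIs, against 3627 in CD8 T cells). Of 4 members with enough UMIs, 3 were called, against 9.07% of 2846 genes.

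Jak1 was 244, 374, 430 and 234 CPM in Ccl5-positive cells against 179, 171, 249 and 212 in negative cells, higher in 4 of 4 libraries (log2 0.56, SE 0.132, adjusted p 0.000593 by edgeR). Stat4 was 105, 104, 87.3 and 67.6 against 51.7, 55.1, 35.9 and 46.1 CPM, higher in 4 of 4 and without overlap (0.84, SE 0.235, adjusted p 0.00661). Socs1 went the other way, at 40.2, 10.4, 24.9 and 31.2 against 50.2, 51.3, 44.9 and 48.4 CPM, lower in 4 of 4 and without overlap (-0.95, SE 0.302, adjusted p 0.0230), on 3 to 13 UMIs per library in positive cells. Stat3 was at 35.5 ± 7.39 and 30.6 ± 7.71 CPM (SD, n = 4; 0.12, SE 0.321, adjusted p 0.874). Each of the 3 calls kept its sign in every alternative where the gene was tested, but DESeq2 called none of them (0.55, 0.85 and -1.04 with adjusted p of 0.618, 0.950 and 1.00 in the order Jak1, Stat4, Socs1). Without Cured replicate 2 Stat4 alone passed (0.90, adjusted p 0.0483), with Jak1 at 0.43 (adjusted p 0.0768) and Socs1 at -0.55 (adjusted p 0.453). Without Cured replicate 1 Stat4 was lost (0.76, adjusted p 0.0810), and Socs1 was lost without Relapsed replicate 1 (-0.97, adjusted p 0.0509) and by library totals (-0.85, adjusted p 0.0773). With positive cells defined by at least 1 Ccl5 UMI, Socs1 was not called either (-0.72, adjusted p 0.09997), while Jak1 (0.53) and Stat4 (0.78) were.

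**Figure D4:**
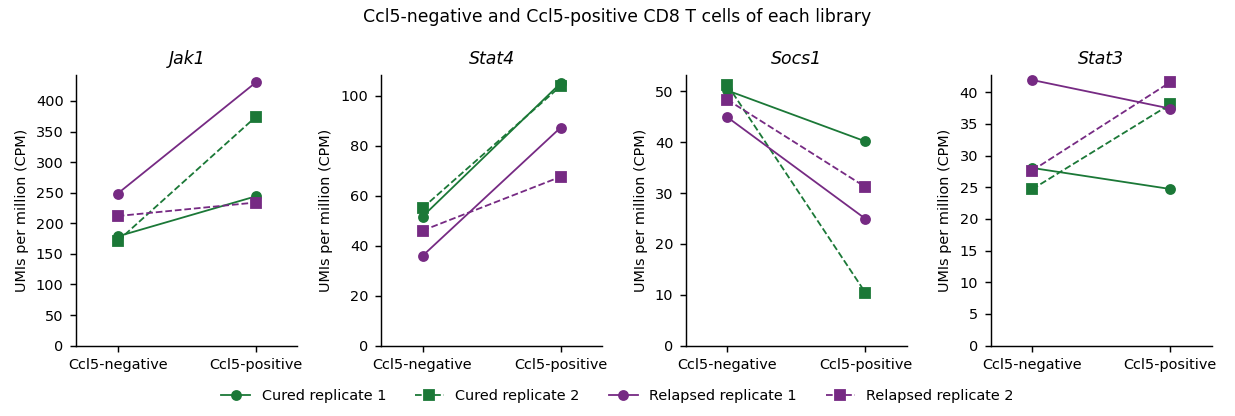
CPM (y axis, from 0) of 4 members in Ccl5-negative and Ccl5-positive CD8 T cells (x axis), a line per library. Jak1 and Stat4 are higher and Socs1 is lower in Ccl5-positive cells on all 4 lines, and Stat3 is higher on 2 of 4.

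Ccl5-positive cells were deeper in every library, with median UMIs of 4774.5, 4336, 4338 and 3443 against 3729, 3687, 3126 and 3344. With every cell thinned to 1000 UMIs, only Jak1 kept enough UMIs for a test (0.32, adjusted p 0.481). Of all genes, 9.07% were called between Ccl5-positive and Ccl5-negative cells. From the pathway lists, 3 of 11 tested receptors were higher in Ccl5-positive cells and 0 lower, 1 of 11 targets was higher and 0 of 7 other negative regulators changed. The receptors were Il2rb (214 ± 27.4 against 44.9 ± 6.29 CPM, log2 2.20, adjusted p 3.91e-29), Il10rb of the interleukin-10 family (82.4 ± 23.6 against 37.7 ± 6.63, log2 1.04) and Ifngr1, the interferon-gamma receptor (263 ± 27.5 against 182 ± 24.8, log2 0.47). The target was Id2, a regulator of effector lymphocytes, at 150 ± 23.9 against 61.4 ± 2.98 CPM (log2 1.19).

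The genes with the pattern most like each member were ranked by Pearson's r of log2(CPM + 1) over the 24 sums of library and class, among genes with a mean of at least 20 CPM. These sums share libraries and classes, so r is a description. Socs3 ran closest to Gsr (0.95), Svil (0.94) and Cotl1 (0.91), and Stat3 to Vamp8 (0.93), Rbms1 (0.93) and Ccdc12 (0.93). Stat6 ran with Mknk1 (0.93), Arhgap26 (0.91) and Khnyn (0.91), and Stat5b with Oas3 (0.86), Nfkbiz (0.85) and Msl1 (0.84). Stat4 ran with Ttc39b (0.89), S1pr4 (0.86) and Acap1 (0.86). Jak1 ran with Gzma (0.88), Stat4 (0.85) and Prf1 (0.83), where Gzma is itself a marker used to gate NK cells. Socs1 ran with Cd3d (0.86), a marker used to gate T cells, Gramd1a (0.84) and Rnf125 (0.83). For Jak3 the closest were Mzt1 (0.90), Uhrf2 (0.86) and 2610035D17Rik (0.86), and for Cish no gene passed 0.58, with Cdkn2aipnl, Tor2a and Prdx6 the closest.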

How the data were processed

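The deposited values are raw UMI counts per gene and cell barcode, made by the authors with Cell Ranger 3.1.0 against mm10, per the submitters' processing notes. Its annotation release is not stated in the sources used here. Cells with fewer than 200 genes (356) or over 10% mitochondrial UMIs (362) were left out. Of those 356 cells, 279 came from Relapsed replicate 1 and 24 from Relapsed replicate 2, with 28 and 25 from Cured replicates 1 and 2. A cell entered a class with at least 3 of its own markers and at most 1 of any other lineage. That limit stood in for a doublet caller, and 409 cells held at least 3 markers of more than 1 lineage. B cells with any UMI of GFP_1, BCR_ABL_1 or Cdkn2a were left out. T cells were split by Cd4 or Cd40lg against Cd8a or Cd8b1. In no class were 1301 kept cells.

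Sums of UMIs over the cells of a class in a library were tested with edgeR 4.0.16 on R 4.3.3 (TMM composition factors, filterByExpr, robust quasi-likelihood test), with Benjamini-Hochberg adjustment over all genes tested. Adjusted p-values come from edgeR, or from DESeq2 1.42.0 where it is named. In the CD8 T outcome fit, 5037 of 5441 genes took their spread wholly from the trend over other genes. In the other outcome fits genes took it in part from that trend. The median weight of the trend (prior degrees of freedom) was 7.60 in B cells, 11.3 in CD4 T cells and 34.0 in NK cells. It was 21.8 in monocytes and 14.8 in neutrophils. CPM, thinning (seed 1) and Leiden clusters (scanpy 1.11.5, resolution 1, leidenalg 0.10.2) were computed here on Python 3.11.15. Outcome tests in B, CD8 T and CD4 T cells were run on simulated counts for recovered and false calls. For class contrasts only the fold in NK cells was examined, and the results of these runs are not given here. The members, lists, markers and tests were chosen with earlier results of these data known. Named for Cured against Relapsed were the 3 members of smallest p per class, and from the lists the 3 genes per class with the largest called positive difference, or in the Ccl5 comparison the 3 of smallest p in each direction. Sequences are from RefSeq (GRCm38.p6) and positions from GENCODE M21. Protein sequences were not used here. A result that the naming rule selects in the Ccl5 comparison is not reported here.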

Additional observations from a re-analysis of the deposited data

How the results depend on the processing

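Between Cured and Relapsed 0 members were called under 13 of 14 alternatives. Leaving out 1 replicate at a time gave 0 to 2, the 2 without Relapsed replicate 2. Adding the replicate number as a block called 0 members. Deviations of same-numbered libraries had r from -0.0666 to 0.0435 over classes. With 2 libraries per group, r cannot tell whether the numbers mark a shared batch. The block moved the count of all genes called in B cells from 0 to 160 and in NK cells from 0 to 6. Without the filter on low counts those were 195 and 9. Among CD8 T cells, where 28 genes were called, library totals gave 2, DESeq2 1, thinning to 1000 UMIs 8, Leiden classes 10 and leaving out a replicate 3 to 199. Leaving out a replicate gave 3 to 1967 genes in B cells, 0 to 145 in NK cells, 3 to 67 in monocytes, 0 to 19 in neutrophils and 0 to 10 in CD4 T cells. The cause of these changes was not tested.

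Some signs reversed. Jak1 in CD4 T cells (-0.07) was 0.24 with no filter and 0.0718 by DESeq2, and ran from -0.109 to 0.0277 without a replicate. In monocytes Stat5b (-0.58) ran from -1.21 to 0.56 without a replicate, and at 1000 UMIs per cell Jak1 (-0.46) was 0.00479 and Socs3 (0.37) was -0.16. Between classes, Stat4 in B cells was -0.0843 with Leiden classes, and Stat3 in NK cells was 0.10 by library totals and 0.0639 at 1000 UMIs. The 26 member calls between classes numbered 20 to 33 over the alternatives, with 8 calls changed by at least 1 of them. At 1000 UMIs Stat3 in monocytes and Stat5b in B and NK cells were no longer called. Pair contrasts (alternatives added after the data were seen) gave 64 to 74 calls. The interaction gave 0 under every alternative run.

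In Ccl5-positive CD8 T cells the 3 calls became 0 with DESeq2, 0 at 1000 UMIs (where fewer genes are tested), 1 without the library block and 1 to 3 without a replicate. In the main fits depth kept Cish out of every test and Jak3 out of all but the outcome tests in B and CD8 T cells. In CD4 T cells it left Jak1 alone for the outcome test. The alternatives with no filter on low counts and with DESeq2 took in every gene with a UMI, Cish and Jak3 included.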
